A study of Mus musculus with 9 samples.

Results

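Hox genes encode homeodomain transcription factors that give the body axis its positional identity. Their transcripts were measured here in motor neurons collected by laser microdissection from mouse lumbar cord. All genes named Hox, then a, b, c or d, then a paralogue number from 1 to 13 in the platform annotation were taken, each by the probe set of highest mean log2 signal among those naming no other gene. This gave 31 Hox genes among 12393 genes with a probe set of their own on the array, out of 39 Hox genes in the RefSeq table. The others were not analysed here, among them Hoxc10, Hoxc11 and Hoxc12, and Hoxb8, Hoxd3 and Hoxd4, which were named only by probe sets shared with a neighbour.

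The 9 arrays each held the neurons of 1 mouse, in 3 groups of 3. Transplanted SMA mice were transgenic SMA animals given cells the labels call NSC (neural stem cells, as known of the study). SMA mice were the same transgenic animals given vehicle, and wild-type mice also had the operation with vehicle. SMA is spinal muscular atrophy, a loss of motor neurons through too little SMN protein. All mice were operated on at postnatal day 1 and killed at day 13, and neurons were collected from lumbar levels 1 to 5, about 100 per cap. The sources used here give neither the transgene nor the strain or sex of the animals.

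In vertebrates the Hox genes lie in 4 clusters. Along a cluster the genes of low paralogue number, at the 3' end, are switched on nearest the head, and those of high number, at the 5' end, nearest the tail. In the developing spinal cord, paralogues 4 to 8 mark cervical and brachial levels, paralogue 9 thoracic levels, and paralogues 10 and 11 the lumbar levels that supply the hind limb, where Hoxc10 and Hoxd10 act in limb motor neurons. Hox proteins bind DNA with Pbx and Meis cofactors, and in limb-level motor neurons they act through the transcription factor Foxp1.

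Values are MAS5 signals, a linear brightness per probe set scaled by the authors to one target per array, and comparisons used log2(signal + 16). Array medians were 31.4 to 35.8. Of 10 motor neuron markers, 9 were on the array and 4 were bright enough to test. These were Isl2 and the neurofilaments Nefh, Nefm and Nefl, which other large neurons also express, with means over the 9 arrays of 59.5, 123, 208 and 871. The 5 others were dim. The acetylcholine transporter Slc18a3 read 2.1 to 41.7 over the 9 arrays, Slc5a7 read 3 to 11.8 and Mnx1 read 4.1 to 16.3. Isl1 and Prph were too dim to test as well, and Chat had no probe set of its own. Glial transcripts were bright, with 5 of 6 oligodendrocyte markers on the array and all 5 bright enough to test. Fewer cells of a type and less RNA per cell cannot be told apart in such samples. All 6 skeletal muscle markers were highest in SMA 1 and SMA 2. Their summed signals were 79.6 to 107.6 in transplanted SMA, 2308.4, 2860.3 and 78.9 in SMA 1, 2 and 3, and 56.3 to 130 in wild type.

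Of the 31 Hox genes, 13 were bright enough to test, which means they lay in the brighter 50% of all probe sets by the mean over the 9 arrays. Brightness of different probe sets is not a comparable amount of RNA, so the levels below place each probe set among all probe sets of the array and do not rank the genes. The 13 were Hoxb2, Hoxb3, Hoxc4, Hoxa5, Hoxb5, Hoxb6, Hoxc6, Hoxa7, Hoxc8, Hoxd8, Hoxa9, Hoxc9 and Hoxd9. Their mean signals ran from 36.6 for Hoxb3 to 164 for Hoxc8, at percentiles 51.6 to 81.8. The other 18 had means of 1.32 to 22.4, at percentiles 0.946 to 40.2. The limit was a mean log2(signal + 16) of 5.63, with Hoxb3 at 5.69 and Hoxd9 at 5.72 just inside it, and Hoxa13 at 5.24 and Hoxa10 at 5.23 just outside.

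By cluster, 3 of 9 Hoxa genes, 4 of 9 Hoxb genes, 4 of 6 Hoxc genes and 2 of 7 Hoxd genes were bright enough. By paralogue number they were 2 of 6 members of paralogues 1 to 3, 6 of 10 of paralogues 4 to 7, 5 of 6 of paralogues 8 to 9, 0 of 4 of paralogues 10 to 11, and 0 of 5 of paralogues 12 to 13. The bright probe sets thus ran from paralogue 2 to paralogue 9, with every member of paralogues 6 and 8 among them.

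**Figure D1:**
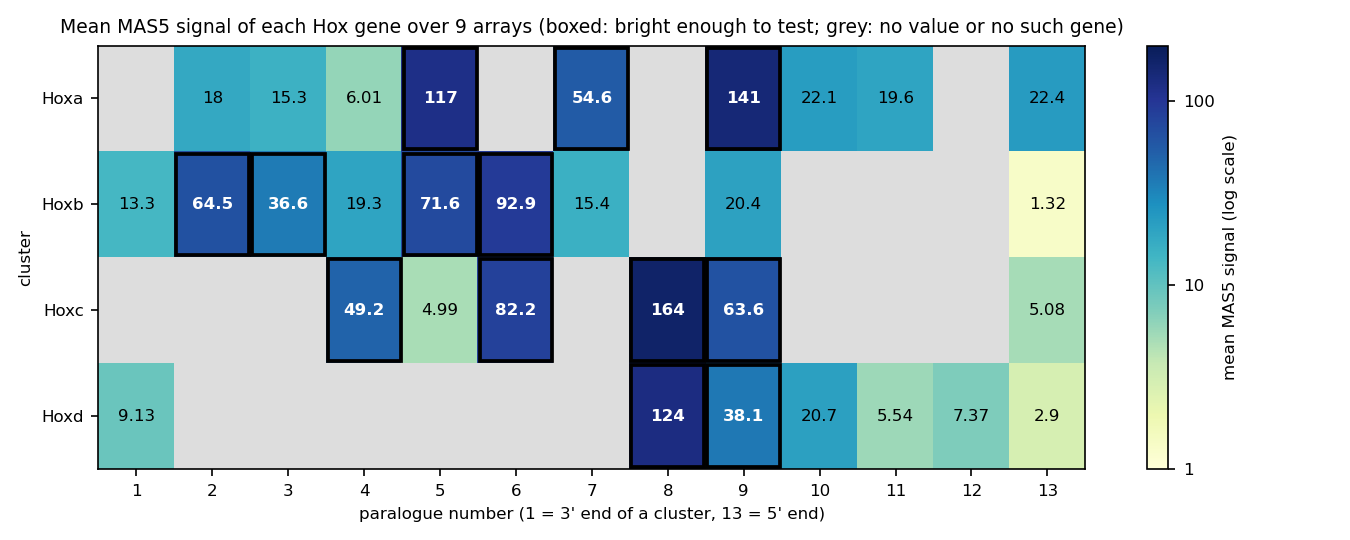
Mean MAS5 signal over 9 arrays of each Hox gene, by cluster (rows) and paralogue number (columns), on a log colour scale. The 13 boxed genes were bright enough to test and all lie at paralogue numbers 2 to 9; grey squares are genes without a value or positions where no such gene exists.

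The members that mark lumbar levels read low. Hoxd10, a regulator of hind limb motor neurons in mice, had signals of 20.9, 16.2 and 18.1 in transplanted SMA, 63.3, 20.9 and 12.5 in SMA, and 1.9, 20.8 and 11.9 in wild type. The value on SMA 1 stood above the other 8, which were all at or below 20.9. Hoxa10, which patterns the limb and the lumbar axis, read 20.6, 30.3 and 12.4 in transplanted SMA, 24.9, 17.5 and 20.3 in SMA, and 16.7, 35.8 and 20.7 in wild type, so the groups overlapped. Hoxa11 and Hoxd11, which act with each other in the limb and kidney, read 4.3 to 39.6 and 0.6 to 13.3 over the 9 arrays. Hoxc10 and Hoxc11, the cluster C members of the same position, have no value here. Lumbar paralogues were therefore seen only through 4 dim probe sets, at percentiles 12.1 to 40.02. A dim probe set does not show that a gene is silent.

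Members of the most caudal positions were dim too, as far as they were measured. Hoxb13, which acts in the tail and prostate, read 0.5 to 2.6. Hoxa13, which acts in digits and the urogenital tract, read 10.3 to 32.8. At the head end, Hoxb1 of the hindbrain read 8.5 to 16.9 and Hoxd1 3 to 20.3. Genes that mark brain levels ahead of the spinal cord were also mostly dim, with 1 of 9 on the array bright enough to test. That gene was Egr2, which also responds to neuronal activity and acts in myelinating glia of nerves, while the forebrain and midbrain factor Otx2 read 0.4 to 1.9.

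Among the bright anterior members, Hoxb2, which in the hindbrain patterns facial motor neurons, read 82, 82.6 and 48.8 in transplanted SMA, against 73.4, 68.1 and 53.1 in SMA and 64, 52.9 and 55.7 in wild type. Its lowest array was transplanted SMA 3 and the groups overlapped. Its neighbour Hoxb3 read 34.9, 42.2 and 28.1 in transplanted SMA, 58.7, 25.9 and 30.4 in SMA, and 28.4, 37.4 and 43.6 in wild type, with SMA 1 highest.

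Of paralogues 4 and 5, which mark cervical and brachial cord, Hoxc4 read 49.9, 43 and 11.2 in transplanted SMA, 71.8, 69.7 and 23.7 in SMA, and 110.9, 26.9 and 35.8 in wild type. Hoxa5, which acts in brachial motor neurons and the lung, read 117.4, 170.1 and 41.9 in transplanted SMA, 156.8, 153 and 80.6 in SMA, and 162.6, 80.8 and 88.8 in wild type. Hoxb5 read 67.3, 81.7 and 35.2 in transplanted SMA, 116.5, 118.1 and 50.1 in SMA, and 80.1, 38 and 57.4 in wild type. These genes, from 3 different clusters, had the same 4 lowest arrays, which were transplanted SMA 3, SMA 3, wild type 2 and wild type 3, with transplanted SMA 3 the lowest for each. Hoxb2 had the same 4 lowest arrays. Each group thus held arrays from both ends of the range.

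Hoxb6 lies next to Hoxb5 in the cluster and is used as a mark of trunk levels. It read 55.9, 82.5 and 44.2 in transplanted SMA, 159.1, 110.9 and 58.3 in SMA, and 115, 112.8 and 97.7 in wild type. All 3 transplanted SMA arrays lay below the 3 wild-type arrays, while SMA spanned both. Hoxc6, a brachial gene that sets limb-level motor neurons apart in mice and chicks, read 78.7, 58.9 and 97.3 in transplanted SMA, 119.6, 68.1 and 77.2 in SMA, and 79, 61 and 100.2 in wild type. Hoxa7, a gene of trunk position, read 42.7, 43.2 and 54.1 in transplanted SMA, 94.5, 62.8 and 4.4 in SMA, and 68.9, 79.1 and 41.7 in wild type. In Hoxc6 the groups overlapped throughout, and in Hoxa7 the SMA arrays held both the highest and the lowest signal of all 9.

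Hoxc8, which in mice and chicks directs the motor pools of the caudal brachial cord, read 126.6, 174 and 128.7 in transplanted SMA, 176.4, 167.3 and 89.7 in SMA, and 223.4, 219 and 169 in wild type. The highest 2 arrays were wild type, and wild type 3 lay among the other groups. Hoxd8, its paralogue in cluster D, read 128.3, 115.8 and 186.8 in transplanted SMA, 121.3, 87.5 and 122.3 in SMA, and 126.4, 143.8 and 87.9 in wild type. Its highest array was transplanted SMA 3, the array on which Hoxc4, Hoxa5 and Hoxb5 were lowest.

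Of paralogue 9, Hoxc9 represses limb-level fate in thoracic motor neurons. It read 73.1, 38.6 and 49 in transplanted SMA, 93.7, 67 and 51 in SMA, and 72.3, 79.2 and 48.4 in wild type. Hoxa9 read 99.5, 89.1 and 173 in transplanted SMA, 154.2, 189.1 and 88.6 in SMA, and 117.4, 194.4 and 161.6 in wild type. Hoxd9, which lies beside Hoxd10, read 48.7, 29.7 and 59.1 in transplanted SMA, 46.7, 26.3 and 37.6 in SMA, and 19, 34.9 and 40.5 in wild type. The groups overlapped in all 3, and transplanted SMA 3 was again the highest array for Hoxd9.

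**Figure D2:**
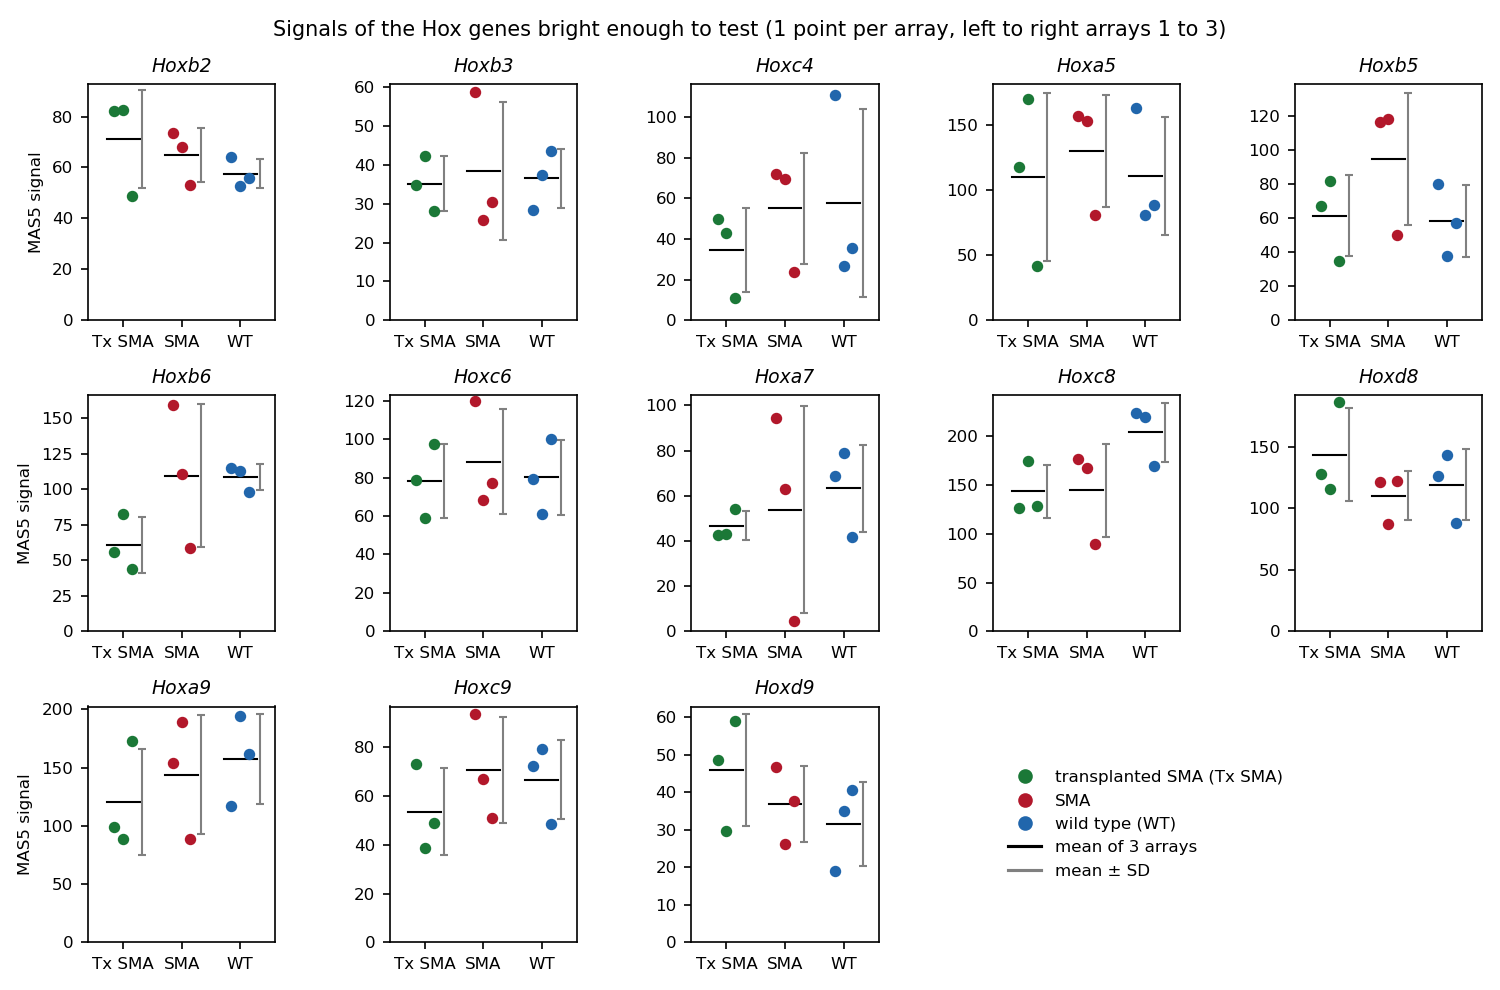
MAS5 signal (linear, from 0) of the 13 Hox genes bright enough to test, 1 point per array, for transplanted SMA (left), SMA (middle) and wild type (right); black lines are means of 3 arrays and grey bars the mean ± SD. The groups overlap in every panel, except that the transplanted SMA points of Hoxb6 lie below its wild-type points.

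Seen by array, SMA 1 lay above the gene's median in 11 of the 13 genes and SMA 3 in 0 of them. SMA 1 was the highest array for 5 genes, and the lowest array was transplanted SMA 3 for 5 and SMA 3 for 3. The median log2 deviation of the 13 genes from their means was 0.49 on SMA 1, 0.09 on SMA 2 and -0.33 on SMA 3. It was 0.01, -0.06 and -0.26 on transplanted SMA 1, 2 and 3, and 0.18, 0.04 and -0.15 on wild type 1, 2 and 3. The 3 SMA animals thus lay at both ends of the range of all 9.

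On some arrays the tested genes of paralogues 4 to 7 and of 8 to 9 deviated in opposite directions. On transplanted SMA 3 the 6 tested genes of paralogues 4 to 7 had a median deviation of -0.74, while the 5 tested genes of paralogues 8 to 9 had 0.32. On wild type 2 these medians were -0.35 and 0.29, and on wild type 3 -0.17 and 0.082. They had the same sign on SMA 1, at 0.62 and 0.17, on SMA 2, at 0.37 and 0.069, on SMA 3, at -0.42 and -0.22, and on wild type 1, at 0.37 and 0.047. On transplanted SMA 1 they were -0.011 and 0.066, and on transplanted SMA 2 -0.037 and -0.21. The split at these paralogue numbers was set with the values known, so it is a description, and within it Hoxc6 and Hoxa7 were above their means on transplanted SMA 3 while Hoxc8 and Hoxc9 were below.

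**Figure D3:**
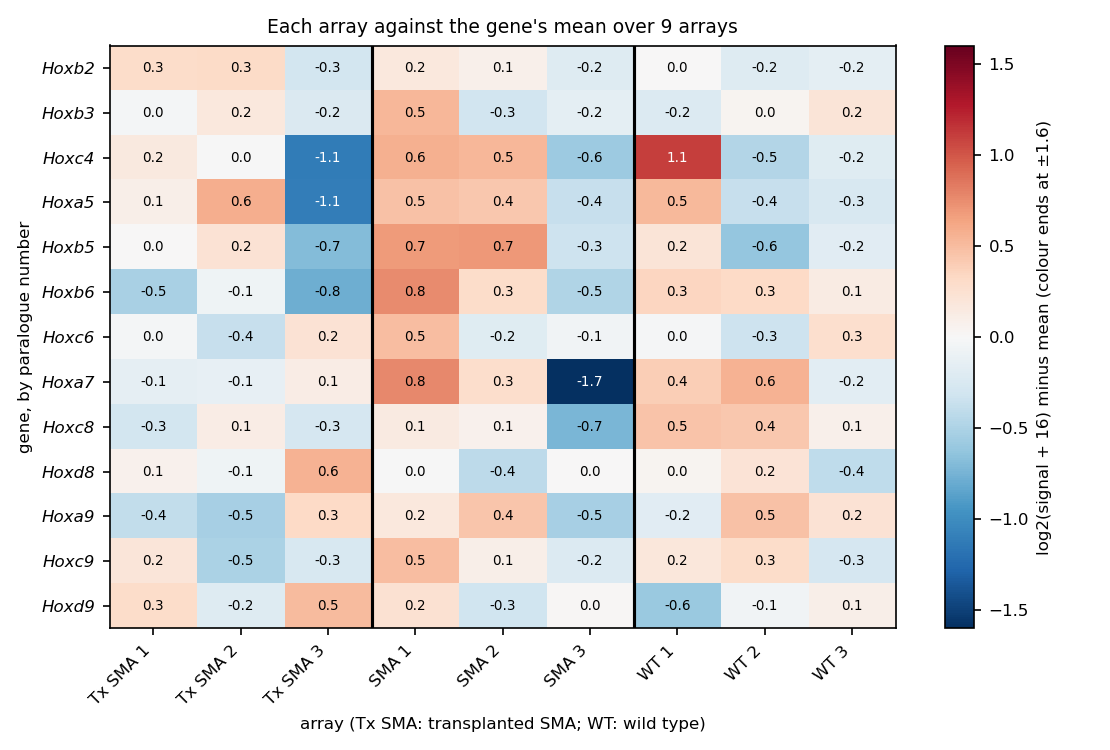
Log2(signal + 16) of each array minus the gene's mean over 9 arrays, for the 13 tested Hox genes ordered by paralogue number, with transplanted SMA arrays on the left, SMA in the middle and wild type on the right. Red is above and blue below the mean; transplanted SMA 3 is blue from Hoxb2 to Hoxb6 and at Hoxc8 and Hoxc9, and red at the other 5 genes, while SMA 3 exceeds the mean by at most 0.022 log2 units, for Hoxd9.

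The 13 genes varied more between arrays of a group than the median tested probe set. Their within-group SD had a median of 0.34 log2 units, against 0.26 over all 11313 tested probe sets, and 12 of the 13 lay above that. The SD was 0.78 for Hoxa7, 0.73 for Hoxc4 and 0.64 for Hoxa5, at percentiles 98.5, 97.9 and 96.5 of all tested probe sets. Hoxb2, at 0.24, was the exception. The probe sets compared were not matched for brightness, so a larger spread particular to Hox genes is not shown.

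Summed oligodendrocyte and astrocyte markers were highest on transplanted SMA 3 and SMA 3, while summed microglia markers were not. Summed signals of 5 oligodendrocyte markers were 33711.9 on transplanted SMA 3 and 31432.8 on SMA 3, and lower on each of the other 7. Per group that list ran from 25560.4 to 33711.9 in transplanted SMA, 17981.1 to 31432.8 in SMA, and 23390.6 to 27014.2 in wild type. The 6 astrocyte markers summed to 6883.1 on transplanted SMA 3 and 7812.8 on SMA 3, with ranges of 4147.3 to 6883.1 in transplanted SMA, 3920.8 to 7812.8 in SMA and 4072.4 to 5057.1 in wild type. The 6 microglia markers summed to 7739.7 on transplanted SMA 3 and 8664.1 on SMA 3. Their highest sums were 9870.9 on wild type 3 and 9430.8 on SMA 1. None of these markers was at 0. Single markers did not all follow the sums. Mag was lowest of the 9 arrays on SMA 3, at 916.7. Slc1a3 read 149.3 on transplanted SMA 3 and 119.8 on SMA 3, with a mean of 183 over the 9 arrays. The astrocyte marker Aldh1l1 read 507.5 on each of these arrays, with a mean of 591 over the 9 arrays, and was highest on SMA 1, at 901.1. Wild type 2 and 3 were also among the 4 lowest arrays of Hoxc4, Hoxa5 and Hoxb5. Their astrocyte sums were 4072.4 and 4799.5, against 5057.1 on wild type 1. Their oligodendrocyte sums were 24590.8 and 27014.2, against 23390.6. The female X-silencing transcript Xist had signals of 733, 739.6 and 366.1 in transplanted SMA, 600.7, 879.5 and 47.6 in SMA, and 32.9, 23.5 and 31.7 in wild type. The Y-linked Eif2s3y read 0.4, 0.3 and 84.8 in transplanted SMA, 0.5, 0.1 and 108.9 in SMA, and 49, 54.7 and 75.1 in wild type. Transplanted SMA 3 thus read high for both Xist and Eif2s3y, and the reason was not tested. Other Y-linked transcripts were less high on that array. Kdm5d read 29 there, against 36 to 51.4 in wild type and 7.2 and 4 on transplanted SMA 1 and 2. Uty read 8.3 there, against 18.8 to 22.9 in wild type and 11.5 and 7.1 on transplanted SMA 1 and 2. By these transcripts the 3 wild-type arrays and SMA 3 read as male. SMA 1, SMA 2, transplanted SMA 1 and transplanted SMA 2 read as female. Sex therefore largely went with group in both comparisons against wild type, where their effects cannot be told apart. SMA 1 and SMA 2, with the muscle transcripts, were the highest 2 arrays for Hoxb5, at 116.5 and 118.1, while the highest array was transplanted SMA 2 for Hoxa5 and wild type 1 for Hoxc4. The part of glial transcripts, sex and muscle transcripts in the Hox values was not tested. With Xist as a covariate, the median Hox difference from wild type was -0.41 for SMA and -0.96 for transplanted SMA. Without it the medians were 0.03 and -0.11. Such a fit cannot separate sex from group, as Xist was low on all wild-type arrays.

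The regions before the starts of 2 of these genes are shown because Hoxa5 and Hoxc4 shared their 4 lowest arrays although they lie on different chromosomes. Hoxd8 and Hoxd9, which had their highest signal on transplanted SMA 3, where those were lowest, are set beside them. They were not opposite on every array. Wild type 3 was among the 4 lowest arrays of Hoxd8 too, and wild type 2 among those of Hoxd9. The RefSeq table matched 6 of the 13 tested genes, and the 4 shown were chosen after their values were seen. Each run is the 250 bases before the transcript start in RefSeq on GRCm38.p6, 5′ to 3′ on the gene's strand, and capitals mark the motif matches described after them.
Hoxa5 (chr6:52204588-52204837, minus strand): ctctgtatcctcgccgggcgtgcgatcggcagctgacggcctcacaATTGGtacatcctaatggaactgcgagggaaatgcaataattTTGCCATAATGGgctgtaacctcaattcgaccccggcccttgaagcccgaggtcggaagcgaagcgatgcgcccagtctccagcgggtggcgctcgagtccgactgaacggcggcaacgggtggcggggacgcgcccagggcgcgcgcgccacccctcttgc
Hoxc4 (chr15:103034145-103034394, plus strand): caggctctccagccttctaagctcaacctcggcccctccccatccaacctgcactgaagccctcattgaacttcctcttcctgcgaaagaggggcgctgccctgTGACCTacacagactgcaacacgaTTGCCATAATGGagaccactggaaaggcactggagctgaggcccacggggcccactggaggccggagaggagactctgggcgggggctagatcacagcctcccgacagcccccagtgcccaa
Hoxd8 (chr2:74704365-74704614, plus strand): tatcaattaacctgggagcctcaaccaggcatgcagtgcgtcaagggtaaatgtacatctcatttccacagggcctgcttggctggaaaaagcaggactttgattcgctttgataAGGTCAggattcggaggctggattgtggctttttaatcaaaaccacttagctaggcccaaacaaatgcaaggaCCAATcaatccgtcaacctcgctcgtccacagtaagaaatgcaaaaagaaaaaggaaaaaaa
Hoxd9 (chr2:74697513-74697762, plus strand): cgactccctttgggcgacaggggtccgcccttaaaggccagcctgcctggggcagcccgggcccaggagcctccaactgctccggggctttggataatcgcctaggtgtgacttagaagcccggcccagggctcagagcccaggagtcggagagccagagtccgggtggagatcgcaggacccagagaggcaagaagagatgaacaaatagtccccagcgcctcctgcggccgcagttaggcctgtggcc

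The longest run of letters that the Hoxa5 and Hoxc4 windows share on the same strand is TTGCCATAATGG, of 12 bases. It starts 162 bases before the start of Hoxa5 and 122 bases before that of Hoxc4. Searched on both strands, it occurred in 2 of 32851 windows of this length, which were these same 2. The run was found by comparing these genes, so their own matches carry no weight. The Hoxd8 window shares a run of 9 bases with each of them, and the Hoxd9 window 9 bases with Hoxa5 and 7 with Hoxc4. The CCAAT box, spelled CCAAT on either strand, occurred before Hoxa5 and Hoxd8 and in 33.8% of all windows. The retinoid receptor motif AGGTCA occurred before Hoxc4 and Hoxd8 and in 14% of all windows. The paired Hox and Pbx site, spelled TGATTNAT, occurred in none of the 4 windows and in 2.82% of all windows. The Hoxd9 window held none of these motifs. GC content was 63.6% before Hoxa5 and 62% before Hoxc4, 44.4% before Hoxd8 and 65.2% before Hoxd9, with a median of 52.4% over all windows. A match is a description of letters and not of binding.

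The first comparison, SMA against wild type, asked whether the disease genotype came with a change in these genes. None of the 13 Hox genes passed an adjusted p of 0.05 with limma, against 0.0442% of all tested probe sets (5 of 11313). At an unadjusted p under 0.05 there were 0 of 13, against 6.04% of all. The 13 differences had a median of 0.03, against 0.01 over all tested probe sets, and 8 were positive and 5 negative. In 0 of 13 genes did the SMA and wild-type arrays not overlap, against 11.4% of all.

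Hoxc8 had the smallest p, with 144 ± 47.6 in SMA and 204 ± 30.2 in wild type (SD, n = 3 each), a log2 difference of -0.49 (SE 0.25, 95% interval -1.04 to 0.05, limma adjusted p = 0.846). Without SMA 3 it was -0.22. Hoxb5 averaged 94.9 ± 38.8 in SMA and 58.5 ± 21.1 in wild type, a difference of 0.54 (SE 0.33, limma adjusted p = 0.908). Over single arrays left out the Hoxb5 difference ran from 0.33 to 0.88. Without SMA 1 and SMA 2 it was -0.13, but then SMA 3 was the only SMA array and its spread was taken from the other groups. Differences were -0.46 (SE 0.49) for Hoxa7, which turned to 0.27 without SMA 3, 0.17 (SE 0.25) for Hoxd9 and 0.13 (SE 0.2, and 0.055 without SMA 1) for Hoxb2, each at a limma adjusted p of 0.9997. Without wild type 1 the Hoxd9 difference was -0.039.

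The next comparison, transplanted SMA against SMA, asked what the transplant changed in SMA animals. With limma, 0 of the 13 passed an adjusted p of 0.05, and over all probe sets the share was 0%. At an unadjusted p under 0.05 there was 1 lower gene of 13, against 4.77% of all in either direction, and in 0 of 13 did the groups not overlap, against 9.11% of all. The median of the 13 differences was -0.13, against 0.00 over all tested probe sets, with 5 positive and 8 negative. The median was -0.49 without SMA 3, 0.07 without SMA 1, 0.05 without transplanted SMA 3 and 0.18 with SMA 3 as the only SMA array.

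The gene with an unadjusted p under 0.05 was Hoxb6, with 60.9 ± 19.6 in transplanted SMA and 109 ± 50.4 in SMA (SD, n = 3 each), a log2 difference of -0.65 (SE 0.29, 95% interval -1.29 to -0.01, limma adjusted p = 0.933). Hoxb5 averaged 61.4 ± 23.8 in transplanted SMA and 94.9 ± 38.8 in SMA, a difference of -0.50 (SE 0.33, limma adjusted p = 0.933). Hoxd8 averaged 144 ± 37.9 in transplanted SMA and 110 ± 19.8 in SMA, a difference of 0.32 (SE 0.23, limma adjusted p = 0.933), and of 0.14 without transplanted SMA 3. Hoxc9 differed by -0.32 (SE 0.25) and Hoxc4 by -0.50 (SE 0.47), at limma adjusted p-values of 0.933 and 0.939. Without SMA 1 and SMA 2 the differences were 0.019 for Hoxb6, 0.18 for Hoxb5, 0.024 for Hoxc9 and 0.25 for Hoxc4. That fit sets transplanted SMA against SMA 3 alone, with the spread taken from the other groups. Over single arrays left out, the differences ran from -0.99 to -0.37 for Hoxb6, -0.84 to -0.23 for Hoxb5, -0.51 to -0.13 for Hoxc9 and -0.88 to -0.10 for Hoxc4.

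The last comparison set transplanted SMA against wild type; it shares the transplanted arrays with the second comparison and the wild-type arrays with the first. With limma, 0 of the 13 passed an adjusted p of 0.05, and over all probe sets the share was 0%. At an unadjusted p under 0.05 there was 1 lower gene, against 6.55% of all in either direction. The groups did not overlap in 1 of 13, against 14.1% of all. The median of the 13 differences was -0.11, against -0.01 over all tested probe sets, with 4 positive and 9 negative.

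That gene was again Hoxb6, with 60.9 ± 19.6 in transplanted SMA and 109 ± 9.42 in wild type (SD, n = 3 each), a log2 difference of -0.72 (SE 0.29, 95% interval -1.37 to -0.08, limma adjusted p = 0.711). Hoxc8 averaged 143 ± 26.8 in transplanted SMA and 204 ± 30.2 in wild type, a difference of -0.47 (SE 0.25, limma adjusted p = 0.786). Hoxd9 averaged 45.8 ± 14.9 in transplanted SMA and 31.5 ± 11.2 in wild type, a difference of 0.38 (SE 0.25, limma adjusted p = 0.861). Hoxa9 differed by -0.37 (SE 0.3) and Hoxb2 by 0.22 (SE 0.2), at limma adjusted p-values of 0.889 and 0.907. Each of these kept its sign without any 1 array. Over single arrays left out, Hoxd9 ran from 0.18 to 0.58, Hoxa9 from -0.63 to -0.21 and Hoxb2 from 0.12 to 0.42.

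**Figure D4:**
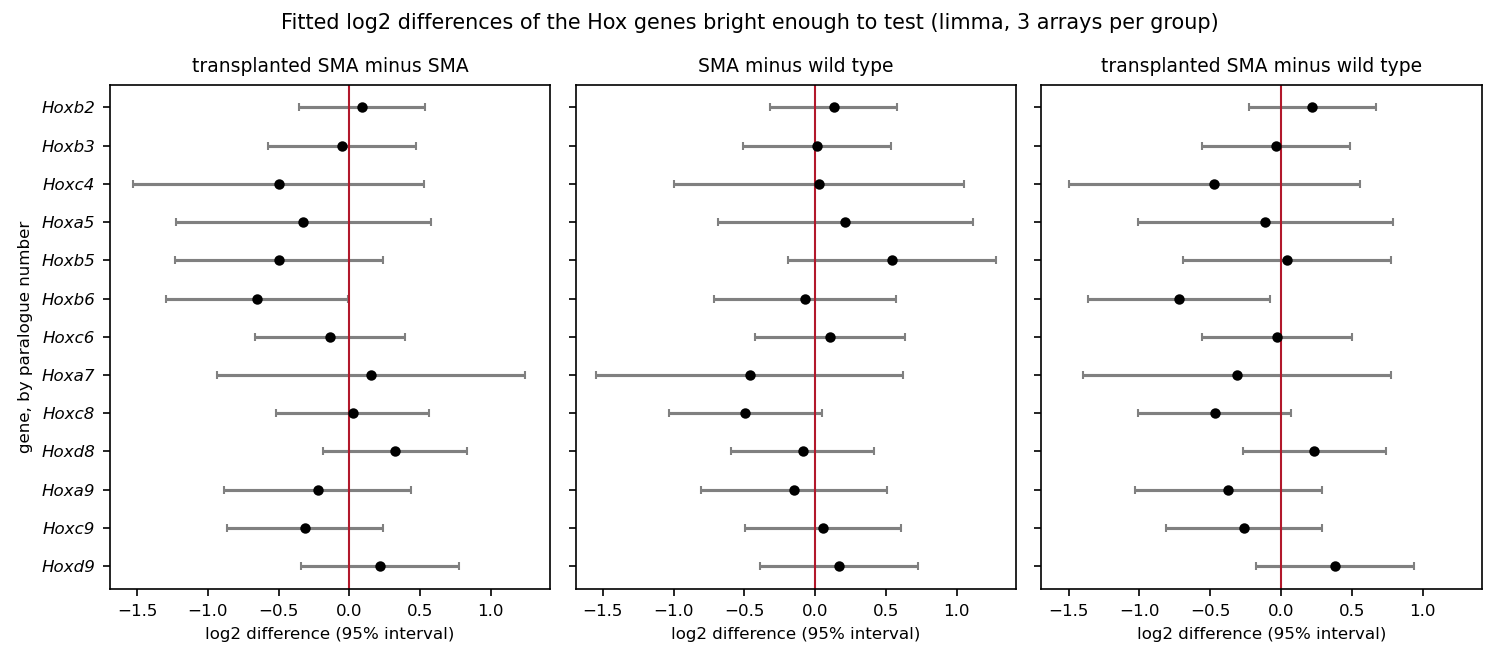
Fitted log2 differences of the 13 tested Hox genes with 95% intervals (limma, 3 arrays per group), with 1 panel per comparison; the red line is 0. The intervals of Hoxb6 lie below 0 in both comparisons of transplanted SMA before adjustment, and the other intervals all include 0.

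The intervals, which are not adjusted for the number of probe sets, show which sizes of change the values do not exclude. The interval of Hoxb2, among the narrowest, ran from -0.32 to 0.58 in SMA minus wild type, or 0.803 to 1.49 times. That of Hoxc4 ran from -0.999 to 1.05, or 0.5004 to 2.08 times, so changes within that range are not excluded with 3 arrays a group. The intervals are not limits of detection at the adjusted threshold.

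Other probe sets of the same genes did not always give the same picture. Hoxa9 differed by -0.15, -0.22 and -0.37 in the 3 comparisons by its brighter probe set and by 0.02, 0.01 and 0.03 by its other bright one. Hoxc6 gave 0.11, -0.13 and -0.03 by the probe set used, whose name marks possible shared probes, and -0.16, 0.22 and 0.06 by another. The bright probe set that names both Hoxb8 and Hoxb7 read 104.9 to 165.1 in transplanted SMA, 102.2 to 189.6 in SMA and 81.7 to 135.6 in wild type.

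Dim members cannot be tested with the same weight, and 2 of them are given by values. These were chosen after their values were seen. Hoxb7, a gene of trunk position, read 20.5, 28.3 and 24.2 in transplanted SMA, 10.3, 9.5 and 24.3 in SMA, and 8.3, 6.6 and 6.9 in wild type. All transplanted SMA arrays lay above all wild-type arrays. Among the brighter probe sets that were tested, these groups did not overlap in 14.1%. With no filter on dim probe sets the log2 difference of Hoxb7 was 0.79 (SE 0.2, limma adjusted p = 0.537). Hoxd1 read 5, 6.8 and 3 in transplanted SMA, 10.7, 4.7 and 8.2 in SMA, and 11.6, 11.9 and 20.3 in wild type, with a difference of transplanted SMA from wild type of -0.54 (SE 0.16, limma adjusted p = 0.624). With no filter, 0 of the 31 members passed in any of the 3 comparisons.

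Genes that work with the Hox proteins did not pass either. Of 9 Pbx, Meis and Pknox cofactors, 8 were on the array and 3 were bright enough to test, and 0 passed in the 3 comparisons by limma, with 1 lower at an unadjusted p under 0.05 in transplanted SMA minus SMA, against 4.77% of all probe sets in either direction. That gene was Meis1, with 51.9, 62.8 and 45.5 in transplanted SMA, 107, 115.7 and 50.4 in SMA, and 55.2, 70.6 and 48.3 in wild type. SMA 1 and SMA 2 were its highest arrays, as for Hoxb5. The log2 difference of transplanted SMA from SMA was -0.57 (SE 0.26, limma adjusted p = 0.933), and it was 0.056 with SMA 3 as the only SMA array. Meis2 averaged 73.4 ± 24.4 in transplanted SMA, 108 ± 47.6 in SMA and 82.1 ± 29.4 in wild type (SD, n = 3 each), with differences of -0.43 from SMA and -0.12 from wild type for transplanted SMA. The differences were 0.48 (SE 0.26) for Meis1 and 0.26 (SE 0.23) for Pbx3 in SMA minus wild type, and 0.22 (SE 0.23) for Pbx3 in transplanted SMA minus wild type.

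Of 32 regulators of Hox genes, 29 were on the array and 17 were bright enough to test. These include Polycomb proteins, which keep Hox genes silent, the activator Kmt2a and retinoid receptors. With limma 0 passed in any comparison, and at an unadjusted p under 0.05 there were 1 higher in SMA minus wild type, 0 in transplanted SMA minus SMA, and 1 higher and 2 lower in transplanted SMA minus wild type. Over all probe sets the shares in either direction were 6.04%, 4.77% and 6.55%. Ezh1, a Polycomb enzyme of resting cells, read 77.2, 59.7 and 78.4 in transplanted SMA, 58.9, 71.6 and 74.2 in SMA, and 37.7, 47.7 and 51 in wild type. All arrays of both SMA groups lay above the 3 wild-type arrays. Over all probe sets, 11.4% did not overlap between SMA and wild type, and 14.1% between transplanted SMA and wild type. The differences of Ezh1 were 0.51 (SE 0.17, limma adjusted p = 0.698) for transplanted SMA and 0.46 (SE 0.17, limma adjusted p = 0.749) for SMA against the same wild-type arrays. With the mean of all probe sets of Ezh1, the difference of SMA from wild type was 0.26. Eed, a partner of both Polycomb methylases, averaged 78.4 ± 2.93 in transplanted SMA and 110 ± 10.8 in wild type (-0.42, SE 0.18, limma adjusted p = 0.739). Its groups did not overlap, as in 14.1% of all probe sets. The other lower gene was Ctcf, with 183.8, 185.4 and 118.4 in transplanted SMA and 247, 266.8 and 202.6 in wild type. Against SMA the differences were -0.32 (SE 0.18) for Eed and -0.38 (SE 0.24) for Ctcf, which insulates Hox genes from their neighbours. The retinoid receptor Rxra differed by 0.45 (SE 0.26) in SMA minus wild type.

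Of 23 genes through which Hox proteins shape limb motor neurons, 21 were on the array and 9 were bright enough to test. With limma 0 passed, and at an unadjusted p under 0.05 there was 1 higher in each comparison of transplanted SMA, against 4.77% of all probe sets (from SMA) and 6.55% (from wild type), and 0 in SMA minus wild type, against 6.04%. That gene was Isl2, a LIM homeodomain factor of motor neurons, with 119.8, 83.7 and 62.6 in transplanted SMA, 47.8, 34.7 and 58 in SMA, and 43, 59.6 and 26.4 in wild type. Every transplanted SMA array lay above every array of the other 2 groups, as the groups did not overlap in 9.11% and 14.1% of all probe sets. The log2 difference was 0.72 (SE 0.27, limma adjusted p = 0.933) against SMA and 0.83 (SE 0.27, limma adjusted p = 0.671) against wild type. Motor neuron markers, 9 of 10 on the array and Isl2 among them, summed to 1185, 2634.5 and 1107.8 in transplanted SMA, 1355.1, 830.3 and 853.1 in SMA, and 1345.1, 1396.3 and 1242.2 in wild type, and their part in the Isl2 values was not tested. Its relative Isl1 was dim, at 3.8 to 16.7. Foxp1, the partner of Hox proteins in limb-level motor neurons, averaged 96.7 ± 25.2 in transplanted SMA, 108 ± 30.7 in SMA and 81.1 ± 3.64 in wild type, with a difference of 0.32 (SE 0.22, limma adjusted p = 0.944) in SMA minus wild type. Nrp2, a receptor for axon guidance cues, differed by 0.42 (SE 0.2) in transplanted SMA minus wild type and 0.40 (SE 0.2) in SMA minus wild type. Nrp1 differed by 0.22 (SE 0.34) in transplanted SMA minus SMA. Egr2, the bright gene among the anterior markers, read 278.9, 48.8 and 41.1 in transplanted SMA, 24.8, 54.8 and 97 in SMA, and 8.9, 12.3 and 77.6 in wild type, with differences of 1.35 (SE 0.66) for transplanted SMA and 0.77 (SE 0.66) for SMA against wild type (limma adjusted p = 0.754 and 0.986). Transplanted SMA 1, its highest array, also had the highest summed meningeal and fibroblast markers, at 7254.6 against 897.4 to 4413.4 on the other arrays, and their part was not tested.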

How the data were processed

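The authors deposited 1 linear intensity per probe set, made with MAS5 per the submitters' processing notes; its version is not stated there. The authors' scaling was kept. Per the labels' protocols RNA was amplified over repeated rounds, which favours the 3' ends of transcripts. Each array held neurons of 1 animal, and the number of arrays limits the precision.

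The array's 22690 probe sets include 64 controls, which were not analysed. The platform annotation gives 1 gene for 20380 of the others (22626), several for 691 and no entry for 1555. Signals had 16 added and were taken to log2. The brighter 50% by the mean over 9 arrays, 11313 probe sets, were compared using limma 3.58.1 (R 4.3.3). A single fit held a term for each group, with trended eBayes moderation, 6 residual and 4.93 prior degrees of freedom. P-values are two-sided, with Benjamini-Hochberg adjustment over all 11313 in each comparison and a threshold of 0.05. The scripts were tested on simulated data.

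The members and gene lists were chosen with earlier results of these data known. Named were all members bright enough to test, up to 3 dim ones per cluster, differences of the 5 members with the smallest p in each comparison, and per related list up to 2 genes a comparison. Promoter windows came from RefSeq on GRCm38.p6.

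Alternatives were quantile normalisation, centring on medians, pseudocounts of 1 and 64, no filter, the brighter 25%, eBayes without trend or robust, array weights, the 6 arrays compared, the replicate number as a block, means over probe sets, leaving out shared-probe sets, leaving out each array, and a threshold of 0.10. Added after seeing the data were fits without SMA 1 and SMA 2, without wild type 3 and SMA 3, and with Xist as a covariate.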

Additional observations from a re-analysis of the deposited data

How the results depend on the processing

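In all 26 alternatives, 0 Hox genes passed in each of the 3 comparisons, with the 3 added fits among them. Over single arrays left out, the median difference of the tested members ranged from -0.16 to 0.23 in SMA minus wild type, -0.49 to 0.071 in transplanted SMA minus SMA and -0.23 to -0.025 in transplanted SMA minus wild type. It was -0.41 and -0.96 against wild type for SMA and transplanted SMA with Xist as a covariate, which is low on all wild-type arrays. For transplanted SMA minus SMA it was 0.18 without SMA 1 and SMA 2, which leaves SMA 3 as the only SMA array with the spread of the other groups, and -0.49 without wild type 3 and SMA 3. With the replicate block it was 0.03, -0.13 and -0.11, as in the unblocked fit; deviations of same-numbered arrays correlated at -0.083 to 0.45 (median 0.12, 9 pairs) and those of differently numbered arrays at -0.47 to 0.33 (median -0.047, 18 pairs). Not every same-numbered pair was over 0.1 and no label ties the numbers to a shared source, so the numbers were not used as pairs. Of 904 values of single genes under an alternative, 875 kept their direction and their side of the threshold, and 29 changed sign.

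In SMA minus wild type, with Xist as a covariate, the differences were -0.41 for Hoxb5, -0.23 for Hoxb2, -0.25 for Meis1, -0.045 for Pbx3, -0.10 for Rxra and -0.20 for Foxp1. Without SMA 1 and SMA 2 they were -0.13 for Hoxb5, -0.087 for Hoxb2, -0.15 for Meis1 and -0.088 for Foxp1. Hoxa7 gave 0.27 without SMA 3 and 0.054 without wild type 3 and SMA 3 and, over single arrays left out, ran from -0.95 to 0.27, and Hoxd9 from -0.039 without wild type 1 to 0.32. In transplanted SMA minus SMA, without SMA 1 and SMA 2, they were 0.019 for Hoxb6, 0.18 for Hoxb5, 0.024 for Hoxc9, 0.25 for Hoxc4, 0.056 for Meis1, 0.22 for Meis2, 0.075 for Ctcf, -0.10 for Nrp1 and -0.13 for Egr2. Over single arrays left out, Nrp1 ran from -0.24 without SMA 1 to 0.52, and Egr2 from -0.18 without transplanted SMA 1 to 1.01. In transplanted SMA minus wild type, Hoxb2 gave -0.25 and Pbx3 -0.18 with Xist, and Meis2 ran from -0.40 to 0.035 over single arrays left out, above 0 without wild type 1, wild type 2 or transplanted SMA 3. The cause of these changes was not tested. Dim probe sets, among them all members of paralogues 10 to 13, limit what can be said of lumbar position.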
